A study of Mus musculus with 12 samples.

Results

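A set of 9 ubiquitin ligase genes of striated muscle was followed across 4 conditions: Trim63, Fbxo32, Trim54, Trim55, Asb2, Asb11, Asb14, Asb15 and Asb18. They are 9 of the 22915 genes of the deposited table and were taken by gene name. Asb15 was selected on its measured fall in normalized count with oncostatin M (OSM), and every comparison shares libraries with that fall, so its values are given as a description, with no test. The other 8 were also listed with earlier results of these data known, and their counts are not independent evidence of a direction.

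The cells were primary cardiomyocytes of male C57/Bl6 mice aged 12 weeks, cultured under normoxia for 24 h. The 4 conditions had 3 libraries each. The controls received PBS, and the others received 1 of 3 recombinant proteins at 25 ng/mL per the labels. These were mouse LIF, the leukemia inhibitory factor (mLIF), mouse OSM (mOSM) and a human-like OSM (hlOSM). mLIF signals through the LIF receptor and mOSM mainly through the OSM receptor in mice. hlOSM is a murine OSM with an exchanged human loop that engages both receptors. All 4 conditions share the strain, sex, age and culture, and no library came from untreated heart tissue. Values are normalized counts that the authors had rounded to whole numbers, and they sum to 2745748 to 2911891 per library, so sequencing depth itself cannot be read from them. A gene was tested when at least 3 libraries held a value of at least 10, which 13184 genes and all 9 of these passed. A change passed the threshold when limma's Benjamini-Hochberg adjusted p over all genes tested was under 0.05. Fold changes are on the scale of log2(normalized count + 1).

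Ubiquitin ligases choose the proteins that receive ubiquitin, and many of those proteins are then broken down by the proteasome. Trim63, Trim54 and Trim55 encode the muscle RING finger proteins MuRF1, MuRF3 and MuRF2, which sit at the sarcomere. Fbxo32 encodes atrogin-1, an F-box protein that works in a complex with cullin 1. The ASB proteins carry ankyrin repeats and a SOCS box, which joins them to elongins and cullin 5. Trim63 and Fbxo32 are known as genes of muscle atrophy, and FOXO factors are known to drive them.

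The promoters of 3 genes are shown because these genes mark the range of the responses: Trim63, whose OSM values overlapped those of PBS, and Asb2 and Asb15, which had the largest decreases of the 9. The sequences come from RefSeq (build GRCm38.p6), which held a promoter for 7 of the 9 genes. Fbxo32 and Trim55 had no entry. Each line gives bases before the first transcribed base, read 5′ to 3′ on the gene's own strand, and capitals mark matches to the motifs named after them. Trim63 lies at chr4:134314870-134315119 on the plus strand, Asb2 at chr12:103356002-103356251 on the minus strand and Asb15 at chr6:24528014-24528143 on the plus strand. Asb2 had another promoter entry, at chr12:103338391-103338640, which is not printed. The Asb15 stretch stops at 130 bases because the bases further upstream lie in an annotated exon of Ndufa5, on the opposite strand.
Trim63: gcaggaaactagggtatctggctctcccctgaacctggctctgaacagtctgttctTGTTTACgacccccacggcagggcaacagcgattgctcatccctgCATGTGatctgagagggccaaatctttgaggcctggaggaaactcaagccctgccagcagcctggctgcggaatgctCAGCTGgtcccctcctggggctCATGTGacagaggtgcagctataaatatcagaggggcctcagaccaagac
Asb2: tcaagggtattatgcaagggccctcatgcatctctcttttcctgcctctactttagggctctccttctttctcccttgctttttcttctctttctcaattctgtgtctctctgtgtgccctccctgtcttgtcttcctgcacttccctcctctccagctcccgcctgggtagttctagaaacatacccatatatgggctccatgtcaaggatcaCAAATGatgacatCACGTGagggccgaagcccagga
Asb15: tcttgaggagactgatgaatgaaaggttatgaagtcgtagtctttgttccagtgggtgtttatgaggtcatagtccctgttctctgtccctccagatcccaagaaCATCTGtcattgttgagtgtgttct

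In all, 5 motifs were searched on both strands in the 250 bases before each start. The STAT motif TTCNNNGAA was in none of the 8 windows of these 7 genes, and 7.02% of all 32851 promoters of that length held it. The FOXO motif GTAAACA was in the windows of Trim63 and Asb18 and in 3.17% of all promoters. A MEF2 motif was found only in the window of Asb18, as CTATTTATAG, and in 1.93% of all promoters. The C/EBP motif TTGCNNCAA was in none of the 8 windows and in 1.74% of all promoters. The E-box CANNTG was in 7 of the 8 windows, and 66.22% of all promoters held it. The window without it was the unprinted one of Asb2, which matched none of the 5 motifs. The capitals mark the FOXO motif, on the minus strand, and 3 E-boxes in Trim63, 2 E-boxes in Asb2 and 1 in Asb15. A match describes the letters in these windows and does not show that a factor was bound.

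The genes lie on 9 chromosomes of mm10, which is the build of the deposited table. The RING finger genes are Trim63 at chr4:134315120-134329629, Trim54 at chr5:31116712-31137630 and Trim55 at chr3:19644474-19692421, all on the plus strand, and Fbxo32 lies at chr15:58175879-58214932 on the minus strand. Of the ASB genes, Asb11 at chrX:164436994-164459170, Asb14 at chr14:26894557-26915258 and Asb15 at chr6:24528144-24573164 are on the plus strand. Asb2 at chr12:103321142-103356001 and Asb18 at chr1:89950220-90014666 are on the minus strand.

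Levels can be compared between genes only per length, so the normalized count was divided by the kilobases of exon. In PBS, Fbxo32 had 352.7 ± 14.7 normalized counts per kb (SD, n = 3) and Trim54 had 332.6 ± 15.0, and the ranges of these neighbours overlapped. Trim63 followed with 205.0 ± 6.88 and Trim55 with 159.5 ± 9.89. The ASB genes of this set were lower, led by Asb14 with 136.3 ± 1.2 normalized counts per kb. Asb11 with 89.1 ± 3.6, Asb2 with 78.5 ± 18.6 and Asb15 with 62.9 ± 8.07 overlapped from one to the next. Asb18 was the lowest with 7.68 ± 3.05. With the longest annotated transcript as the length, Trim55 and Asb14 changed places in PBS. After mOSM and hlOSM, Trim54 stood above Fbxo32 by exon length, although their ranges overlapped with mOSM. By longest transcript, Trim63 stood first in both.

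**Figure D1:**
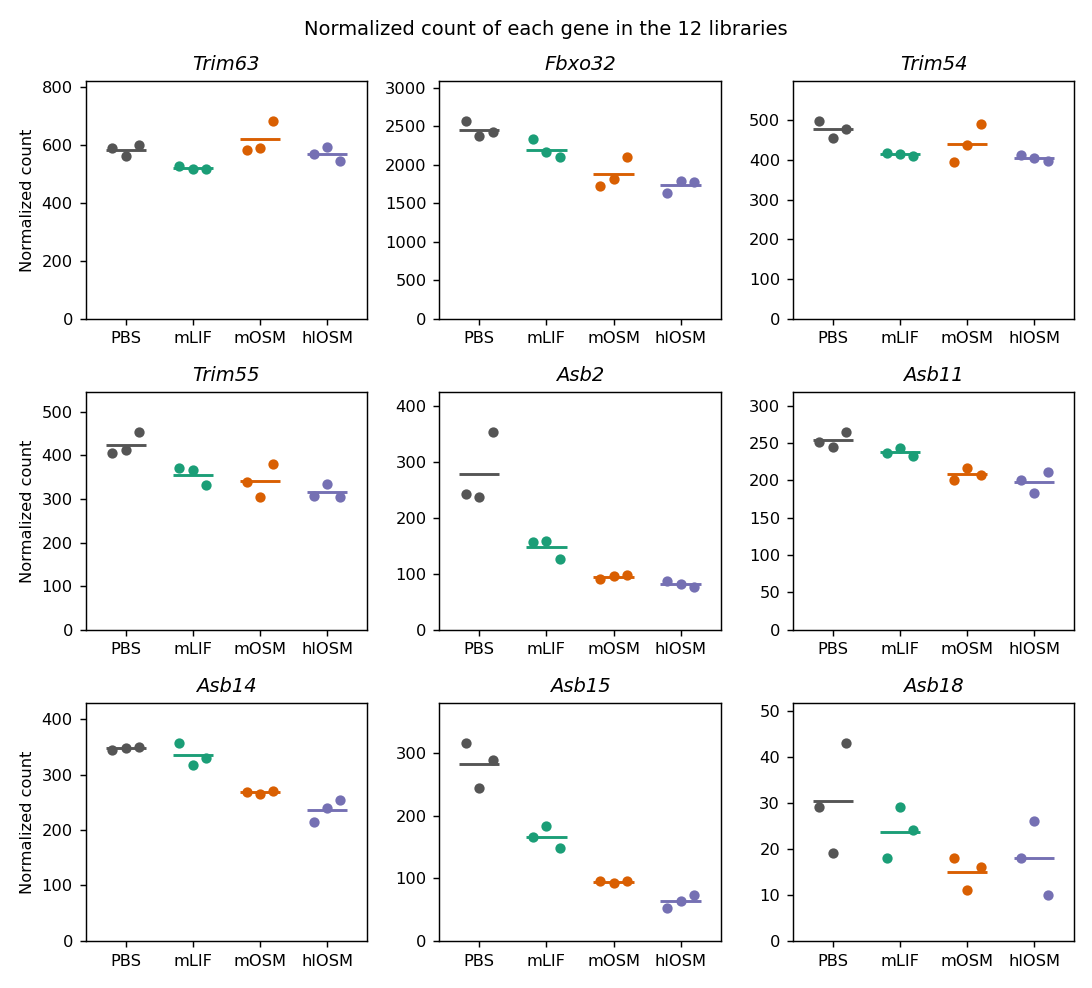
Normalized count (vertical axes, from 0) of each of the 9 genes in the 3 libraries of each condition (horizontal axes), with the mean of the condition as a line. Asb2 and Asb15 step down from PBS to mLIF to the OSM conditions, whereas Trim63 stays between 515 and 683 in all 12 libraries.

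With OSM, most of these ligase genes fell, and Trim63 did not pass the test. Of the 8 genes other than Asb15, 6 passed the threshold as lower with mOSM, where 15.8% of all genes tested did, and none as higher, where 15.4% did. With hlOSM, 6 of the 8 were lower, where 19.8% of all genes tested were, and none higher, where 18.2% were. At an unadjusted p under 0.05 by limma, the count of higher genes was also 0 with mLIF, mOSM and hlOSM. For 6 of these 8 all mOSM libraries lay below all PBS libraries, beside 19.9% of all genes tested. With hlOSM that number was again 6 of 8, beside 24.3%. Since the list was drawn up with these comparisons known, nothing is read from these counts. The 9 genes together held 0.174% to 0.184% of the library total in PBS and 0.126% to 0.134% with hlOSM. This sum includes Asb15, which was chosen for its fall. Its largest part was Fbxo32, with a mean of 2460.7 in PBS and 1733.0 with hlOSM, so it does not describe the genes evenly.

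Asb2, which encodes a ligase subunit known to target filamins, had the largest tested decrease. Its normalized counts were 243, 237 and 354 in PBS, 157, 159 and 126 with mLIF, and 90, 97 and 98 with mOSM. The hlOSM libraries read 87, 81 and 76. No library of any cytokine reached the lowest PBS library, and PBS replicate 3 stood well above the others. Asb2 fell 2.86-fold with mOSM (log2 fold change -1.52, SE 0.12, adjusted p = 3.34e-09 by limma). With hlOSM it fell 3.34-fold (log2 fold change -1.74, SE 0.12, adjusted p = 2.52e-10 by limma). Without PBS replicate 3, these log2 fold changes were -1.33 and -1.55.

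Asb15, an ASB gene known mainly from muscle, had normalized counts of 316, 244 and 288 in PBS and 166, 183 and 149 with mLIF. The mOSM libraries read 96, 92 and 96. The hlOSM libraries were lower still, at 53, 64 and 74. The 4 conditions formed steps with no overlap between any of them. Against PBS the decrease was 2.95-fold with mOSM (log2 fold change -1.56, SE 0.11) and 4.4-fold with hlOSM (-2.14, SE 0.11), the values on which Asb15 had been chosen.

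Asb14 was more even between libraries. It read 344, 348 and 350 in PBS, 357, 318 and 330 with mLIF, and 269, 264 and 271 with mOSM. Under hlOSM it read 214, 239 and 254. The mLIF libraries overlapped those of PBS, and both OSM conditions lay wholly below. Its log2 fold change was -0.37 with mOSM (SE 0.07, adjusted p = 0.000203 by limma) and -0.56 with hlOSM (SE 0.07, adjusted p = 9.31e-07).

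Asb11 moved less. Its normalized counts were 251, 245 and 265 in PBS, 237, 243 and 233 with mLIF, and 201, 216 and 207 with mOSM. The values with hlOSM were 200, 183 and 211. The 2 OSM conditions overlapped each other and lay below PBS and mLIF in every library. The log2 fold change was -0.28 with mOSM (SE 0.07, adjusted p = 0.00314 by limma) and -0.36 with hlOSM (SE 0.07, adjusted p = 0.000316).

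Asb18 was close to the filter on low values. It read 29, 19 and 43 in PBS, 18, 29 and 24 with mLIF, and 18, 11 and 16 with mOSM. The hlOSM libraries read 18, 26 and 10. Only the mOSM libraries lay wholly below PBS, by 1 normalized count. The mOSM change passed the threshold (log2 fold change -0.92, SE 0.3, adjusted p = 0.0226 by limma) and the hlOSM change did not (-0.74, SE 0.3, adjusted p = 0.0565). The mOSM call was lost without PBS replicate 3 (adjusted p = 0.15 by limma) or without mOSM replicate 2 (0.109). The hlOSM change passed when PBS replicate 2, mOSM replicate 2 or hlOSM replicate 2 was left out (0.015, 0.0478 and 0.0127).

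Among the longer known atrophy genes, Fbxo32 fell with both OSM proteins and Trim63 did not pass the threshold. Fbxo32 had normalized counts of 2576, 2379 and 2427 in PBS, 2333, 2165 and 2097 with mLIF, and 1721, 1821 and 2108 with mOSM. Under hlOSM it read 1640, 1785 and 1774. Every cytokine library was below every PBS library. Its log2 fold change was -0.39 with mOSM (SE 0.06, adjusted p = 6.03e-05 by limma) and -0.51 with hlOSM (SE 0.06, adjusted p = 1.63e-06).

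Trim63 read 588, 561 and 599 in PBS, 527, 515 and 515 with mLIF, and 582, 589 and 683 with mOSM. The values with hlOSM were 568, 593 and 545. The mLIF libraries were the lowest, and both OSM conditions overlapped PBS. Its log2 fold change was 0.08 with mOSM (95% interval -0.05 to 0.21, adjusted p = 0.34 by limma) and -0.04 with hlOSM (-0.16 to 0.09, adjusted p = 0.684). These intervals leave room for small changes in either direction. Without mOSM replicate 3, which was the highest of the 12, the mOSM value was 0.01.

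Trim55, or MuRF2, also fell with both OSM proteins. Its normalized counts were 405, 413 and 454 in PBS, 370, 367 and 331 with mLIF, and 339, 304 and 381 with mOSM. The hlOSM libraries read 307, 334 and 305. All cytokine libraries lay below PBS, and the 3 cytokine conditions overlapped each other. The log2 fold change was -0.32 with mOSM (SE 0.08, adjusted p = 0.00275 by limma) and -0.43 with hlOSM (SE 0.08, adjusted p = 0.000125).

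Trim54, or MuRF3, passed the threshold with hlOSM and not with mOSM. It read 499, 456 and 478 in PBS, 418, 416 and 409 with mLIF, and 395, 437 and 490 with mOSM. Under hlOSM it read 412, 404 and 398. Replicates 1 and 2 of mOSM lay below the PBS range and replicate 3 inside it, whereas all libraries of mLIF and hlOSM lay below it. The hlOSM change passed the threshold (log2 fold change -0.24, SE 0.07, adjusted p = 0.00713 by limma) and the mOSM change did not (-0.12, SE 0.07, adjusted p = 0.178). Without mOSM replicate 3 the mOSM change was -0.2 and passed (adjusted p = 0.016 by limma). An antisense gene, Gm15469, overlaps 26.6% of the exon bases of Trim54, and another, Gm15943, overlaps 2.67% of those of Fbxo32. Whether the counting used strand is not given in the sources used here. Per the study's methods, reads that overlapped several genes were left out. If strand was not used, reads in these shared bases would be missing and the levels per kb lower, which was not tested.

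**Figure D2:**
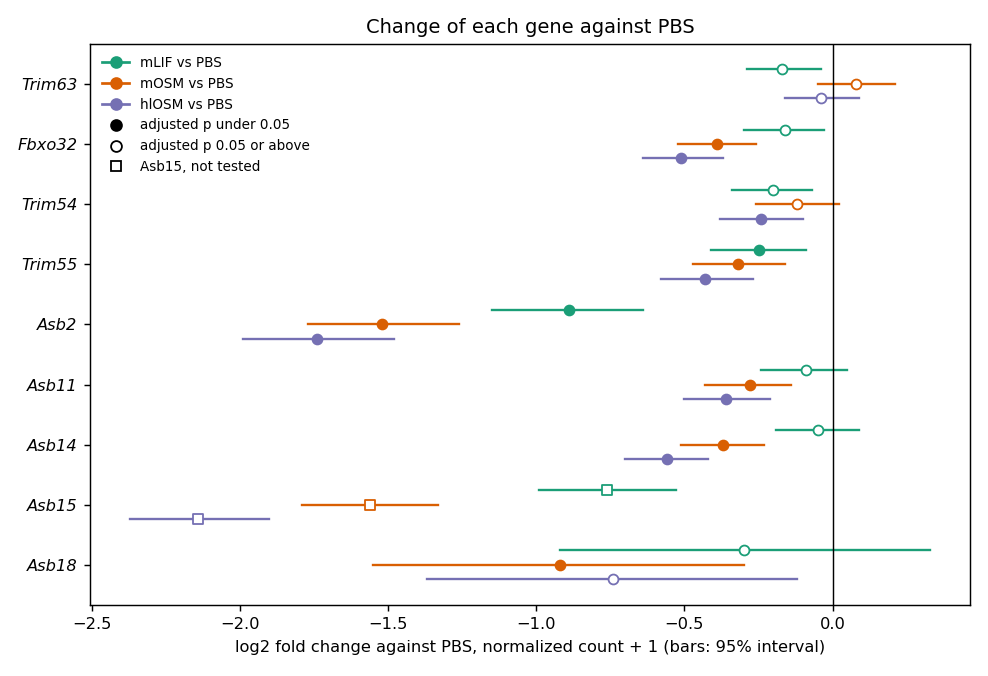
Log2 fold change against PBS (horizontal axis, normalized count + 1) of each gene with mLIF, mOSM and hlOSM, with 95% intervals from limma. Filled points passed an adjusted p of 0.05, open circles did not, and the squares of Asb15 were not tested. The hlOSM values run from -2.14 for Asb15 to -0.04 for Trim63.

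With mLIF, 2 of the 8 tested passed the threshold as lower (Asb2 and Trim55), where 4.44% of all genes tested did, and none as higher, where 5.47% did. Asb2 fell 1.86-fold (log2 fold change -0.89, SE 0.12, adjusted p = 0.000108 by limma), with no overlap between the mLIF and PBS libraries. Without PBS replicate 3 the value was -0.71. Asb15, described without a test, was 1.69-fold lower (-0.76, SE 0.11), also with no overlap.

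Trim55 was lower by a log2 fold change of -0.25 (SE 0.08, adjusted p = 0.0379 by limma). That call was lost when PBS replicate 2 or 3 or any of the mLIF replicates was left out, with adjusted p from 0.058 to 0.194. The other 6 genes tested had log2 fold changes from -0.3 to -0.05, and none passed. For 6 of the 8 genes, Trim63, Fbxo32 and Trim54 among them, all mLIF libraries lay below all PBS libraries, beside 15.6% of all genes tested. Without mOSM replicate 3, which enters only through the shared spread, 5 of the 8 passed, with Trim63, Fbxo32 and Trim54 added.

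The comparison of hlOSM with mOSM asks whether engaging both receptors moved these genes further. None of the 8 genes tested passed by limma, where 0.106% of all genes tested passed as lower, and 1, Asb14, was lower at an unadjusted p under 0.05. Asb15, described without a test since its OSM values had chosen it, was 1.49-fold lower with hlOSM (log2 fold change -0.58, SE 0.11), with no overlap between the libraries. For Asb2 and Asb14, 2 of the 8, the hlOSM libraries also lay wholly below those of mOSM, beside 5.62% of all genes tested. Asb14 had a log2 fold change of -0.19 (95% interval -0.33 to -0.05, adjusted p = 0.489 by limma) and Asb2 of -0.22 (-0.48 to 0.03, adjusted p = 0.706). For the MuRF genes and Fbxo32 the values ran from -0.12 to -0.11, and for Asb11 the value was -0.07 (95% interval -0.22 to 0.07). Asb18, at 0.18, had an interval from -0.44 to 0.81 that leaves most changes possible.

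Against mLIF, Trim63, whose mLIF libraries lay below all PBS libraries, was the gene that stood higher with mOSM. Its log2 fold change was 0.25 (SE 0.06, adjusted p = 0.00843 by limma), with no overlap between the libraries, and it was 1 of 8 genes where 6.05% of all genes tested passed as higher. Asb2, Asb14 and Fbxo32 were lower with mOSM than with mLIF, 3 of 8 where 5.76% of all genes tested were. Their log2 fold changes were -0.62 for Asb2, -0.32 for Asb14 and -0.23 for Fbxo32 (adjusted p = 0.00116, 0.00253 and 0.0208 by limma). The Fbxo32 call was lost without mLIF replicate 1 or 2 or mOSM replicate 1 or 2, with adjusted p from 0.0542 to 0.13.

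Between hlOSM and mLIF, 4 of the 8 were lower, Asb2, Asb14, Fbxo32 and Asb11, where 9.22% of all genes tested were. The log2 fold changes were -0.84 for Asb2, -0.51 for Asb14, -0.34 for Fbxo32 and -0.26 for Asb11 (adjusted p = 2.9e-05, 1.18e-05, 0.000526 and 0.0104 by limma). Asb11 no longer passed without mLIF replicate 2 (0.0522) or hlOSM replicate 2 (0.0741). Trim63 stood at 0.13 (95% interval 0.0 to 0.26, adjusted p = 0.161). Asb15 stood at -0.8 with mOSM and -1.38 with hlOSM against mLIF, given without a test. All comparisons against PBS share the PBS libraries, and those against mLIF share the mLIF libraries.

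Other genes of the ASB family changed in both directions. Of the 18 family names, 16 were in the table and 15 passed the filter on low values, 10 of them outside the chosen genes. Of these 10, 5 rose with mOSM (Asb1, Asb4, Asb5, Asb6 and Asb7) and 1 fell (Asb10), where 15.4% of all genes tested rose and 15.8% fell. With hlOSM 4 rose and 1 fell, where 18.2% rose and 19.8% fell, and their median log2 fold change was 0.18, beside -0.005 over all genes tested. Asb4 read 44, 56 and 51 in PBS, 125, 83 and 107 with mOSM, and 105, 95 and 98 with hlOSM, a log2 fold change of 1.03 with mOSM (adjusted p = 3.38e-06 by limma) and 0.97 with hlOSM (5.59e-06).

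Asb6 rose by 0.69 and Asb1 by 0.29 on the log2 scale with hlOSM (adjusted p = 0.000456 and 0.00959 by limma). Asb10 read 121, 98 and 128 in PBS, and 72, 68 and 77 with mOSM. The values with hlOSM were 53, 58 and 47. Its 3 conditions did not overlap, and the log2 fold change was -0.66 with mOSM and -1.12 with hlOSM (adjusted p = 0.000134 and 1.1e-07 by limma).

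**Figure D3:**
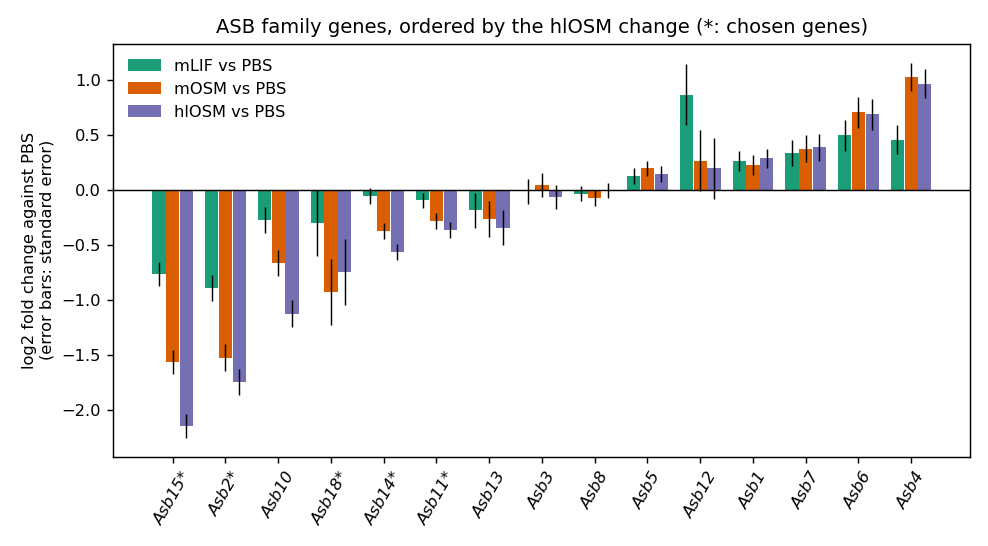
Log2 fold change against PBS (vertical axis) of the 15 ASB family genes that passed the filter, with mLIF, mOSM and hlOSM as bars and standard errors from limma, ordered by the hlOSM value. Asb15 is among them as a description, without a test. The chosen genes, marked by a star, all lie below 0, as does Asb10 at -1.12 with hlOSM, and Asb4 reaches 1.03 on the upper side.

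Of 9 elongin and cullin 5 partners of SOCS box proteins, none passed with mLIF by limma (1 higher and 1 lower at an unadjusted p under 0.05), while 1 was higher with mOSM and 3 with hlOSM, where 15.4% and 18.2% of all genes tested were. The 3 were Eloc, or elongin C (log2 fold change 0.29, adjusted p = 0.00601 by limma), Ube2f, a NEDD8-conjugating enzyme (0.22, 0.034), and Uba3, a subunit of the NEDD8-activating enzyme (0.16, 0.0272). None of the 6 partners of F-box proteins, such as cullin 1, passed in any of the 6 comparisons by limma, and 1 was higher with mOSM than with PBS at an unadjusted p under 0.05.

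Among 29 other ubiquitin ligase genes of muscle, 6 rose and 7 fell with mOSM, and 7 rose and 8 fell with hlOSM. Over all genes tested 15.4% rose and 15.8% fell with mOSM, and 18.2% rose and 19.8% fell with hlOSM. Cblb, a ligase of receptor signalling that is known from muscle unloading, read 247, 223 and 234 in PBS, and 511, 535 and 518 with mOSM. The hlOSM libraries read 516, 495 and 558. The 2 OSM conditions overlapped and both lay far above PBS (log2 fold change 1.15 in each, adjusted p = 6.47e-12 and 4.6e-12 by limma). Klhl40 and Klhl41, adaptor proteins of cullin 3 that act in the sarcomere, rose by 0.83 and 0.42 with hlOSM (adjusted p = 1.78e-06 and 9.63e-05). Fbxo40, a muscle F-box protein known to target IRS1, fell by 0.46 on the log2 scale with hlOSM (adjusted p = 9.54e-08 by limma). Rnf207, a cardiac RING finger gene, fell by 0.78 (adjusted p = 0.000201), and Mdm2, the ligase of p53, fell by 0.22 (adjusted p = 0.00135).

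Regulators named for the atrophy program were mixed. Of 21 tested, 5 rose and 9 fell with mOSM, and 4 rose and 10 fell with hlOSM, beside the same shares over all genes of 15.4% and 15.8%, and of 18.2% and 19.8%. Socs3, a feedback inhibitor of JAK-STAT signalling, rose from 192.0 in PBS to 385.7 with mLIF, 815.7 with mOSM and 865.0 with hlOSM as mean normalized counts. Its log2 fold change was 2.17 with hlOSM (adjusted p = 8.8e-15 by limma), and each cytokine passed. Cebpd, a transcription factor, rose by 1.41 and Ddit4, an inhibitor of mTORC1, by 1.01 with hlOSM (adjusted p = 4.79e-07 and 1.42e-06). Ppargc1a, a coactivator of mitochondrial genes, fell by 0.86, Mef2c by 0.76 and Mef2a by 0.48 on the log2 scale (adjusted p = 2.05e-10, 1.22e-09 and 2.37e-07 by limma).

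The FOXO genes were picked here after their values were seen. Foxo3 had a log2 fold change of -0.56 with hlOSM (adjusted p = 4.73e-06 by limma) and Foxo4 of -0.45 (3.4e-05), whereas Foxo1 had -0.12 (0.363). Foxo6 did not pass the filter on low values and was not tested. It read 9, 11 and 14 in PBS and 1, 1 and 2 with hlOSM.

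Of 22 autophagy and other atrophy genes, 4 rose and none fell with mOSM by limma (5 lower at an unadjusted p under 0.05), and 3 rose and 1 fell with hlOSM. The shares over all genes were those given for the other ligases. They were 15.4% higher and 15.8% lower with mOSM, and 18.2% higher and 19.8% lower with hlOSM. The metallothioneins Mt1 and Mt2 rose by 1.78 and 1.74 with hlOSM (adjusted p = 9.76e-09 and 7.31e-10 by limma). Pdk4, a kinase that restrains pyruvate dehydrogenase, rose by 0.23 (0.0147), and Bnip3, a mitophagy receptor, fell by 0.33 (0.00592).

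Of 23 substrates and partners named for these ligases, 4 rose and 9 fell with either OSM, where 15.4% of all genes tested rose and 15.8% fell with mOSM and 18.2% rose and 19.8% fell with hlOSM. Flna, a filamin that ASB2 is known to target, fell by 0.62 on the log2 scale with hlOSM, from a mean of 1026.0 to 668.0 normalized counts (adjusted p = 6.28e-08 by limma). Flnc, the muscle filamin, rose by 0.14 (adjusted p = 0.0373). Tle3 and Jak2 rose by 0.91 and 0.46 (1.14e-08 and 2.4e-06). Ttn and Mybpc3, giant and thick-filament proteins of the sarcomere, fell by 0.48 and 0.5 (3.03e-07 and 2.63e-06). These are RNA levels, and they say nothing of the amount of each protein.

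The genes whose pattern over the 12 libraries was most like that of Asb15 were Kcnj5, Ldb3, Prlr, Rhobtb1 and Iigp1. Pearson's r of the log2 values was 0.99 for Kcnj5, 0.988 for Ldb3 and Prlr and 0.986 for Rhobtb1 and Iigp1, the highest of 8669 genes with a mean of at least 50. The points are 12 libraries of 4 conditions, so r mostly follows the 4 condition means and is given as a description. Prlr, the prolactin receptor, read 196, 140 and 147 in PBS, 109, 108 and 104 with mLIF, and 57, 53 and 55 with mOSM. Under hlOSM it read 28, 43 and 46. Like Asb15, Prlr and the other genes named here had no overlap between conditions. They were picked for their likeness to Asb15, so nothing is read from this lack of overlap. Kcnj5, a potassium channel subunit of the atria, had means of 301.7, 234.0, 172.0 and 145.7 in the same order. Ldb3, a Z-disc protein, had means of 1186.0, 955.0, 692.0 and 580.3. Among the 9, r with Asb15 was 0.94 for Asb2, Asb14 and Fbxo32, 0.93 for Asb11, 0.84 for Trim55, 0.61 for Trim54, 0.6 for Asb18 and -0.16 for Trim63. Among genes with a mean of at least 50, Asb15 included, 142 had a higher r than Asb2 and 161 than Fbxo32. That number was 809 for Trim55 and 2034 for Trim54.

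**Figure D4:**
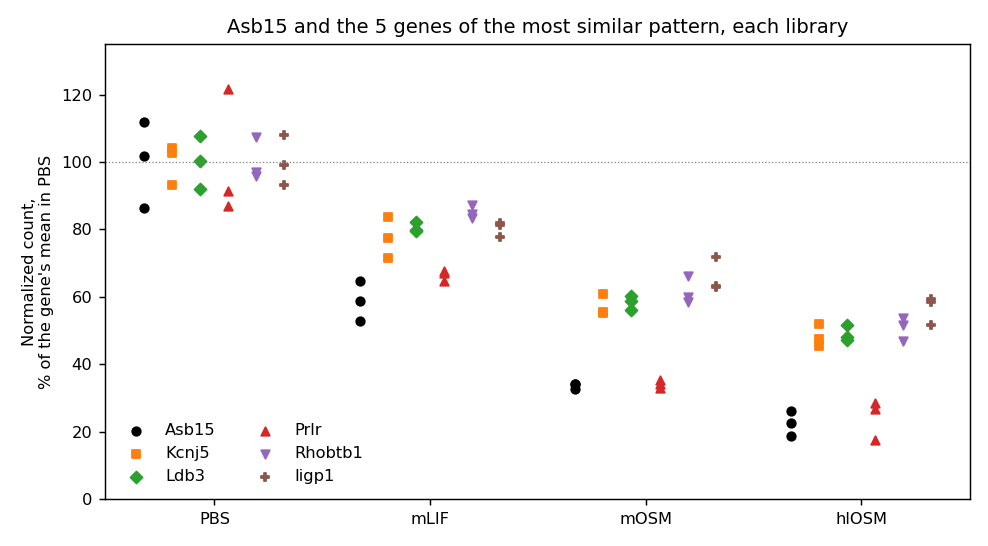
Normalized count of Asb15 and the 5 genes of the most similar pattern in each library, as a percentage of the gene's own mean in PBS (vertical axis), by condition. All 6 genes step down from PBS to mLIF to mOSM to hlOSM, and Asb15 and Prlr reach the lowest values.

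Markers of the cell types that such a culture can hold also moved. All 7 cardiomyocyte markers were found, and their summed normalized counts ran from 14638 to 16252 in PBS, 12453 to 13869 with mLIF, 11327 to 13277 with mOSM and 11800 to 12165 with hlOSM. Of these 7, 5 fell with mLIF and 6 with each OSM. Over all genes tested, 4.44% fell with mLIF and 15.8% with mOSM, and with hlOSM 19.8% fell and 18.2% rose. These hlOSM shares also stand beside the counts of the other cell types below. The hlOSM median over the 7 cardiomyocyte markers was -0.32 on the log2 scale. In such bulk samples, fewer cardiomyocytes and less of an RNA per cardiomyocyte cannot be told apart. The 6 endothelial markers summed to 1003 to 1052 in PBS and 1235 to 1335 with hlOSM, and 4 of them rose. The 5 smooth muscle and pericyte markers summed to 751 to 910 in PBS and 522 to 536 with hlOSM, and all 5 fell. Of the 6 fibroblast markers 3 rose and 3 fell with hlOSM, with sums of 1982 to 2216 in PBS and 2079 to 2320 with hlOSM. The 6 macrophage and leukocyte markers summed to 300 to 316 in PBS and 315 to 387 with hlOSM. Of the 5 of them tested, 1 rose (Cd68) and 1 fell (Lyz2) with hlOSM, and their median log2 fold change was -0.04. Of 7 skeletal muscle markers, Ckm, Acta1 and Myod1 had rows. Acta1 rose, and Myod1 was at 0 in every PBS and mLIF library. With hlOSM the log2 fold changes of Asb15 (-2.14), Asb2 (-1.74), Asb18 (-0.74), Asb14 (-0.56), Fbxo32 (-0.51), Trim55 (-0.43) and Asb11 (-0.36) were below the cardiomyocyte median, and those of Trim54 (-0.24) and Trim63 (-0.04) above it. The 7 cardiomyocyte markers themselves ran from -0.56 (Tnnt2 and Pln) to -0.19 (Actc1). Fbxo32, Trim55, Asb11 and Trim54 lay within that range, and Asb14 at its lower end. The part of these marker changes in the results above was not tested.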

How the data were processed

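RNA of cultured cardiomyocytes was sequenced in 12 libraries, 3 per condition, made with a stranded total RNA kit. Per the labels and the study's methods, the authors aligned reads to mm10 with STAR 2.7.7a and assigned them to genes with featureCounts 1.6.5. The deposited table holds normalized counts rounded to whole numbers, treated as a score because the normalization was not named and count models need raw counts. All 12 columns were matched to samples by the labels.

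Values were log2-transformed after adding 1 and fitted with limma 3.58.1 in R 4.3.3 with a mean-variance trend, all 4 conditions in 1 fit, over the 13184 genes with at least 10 in at least 3 libraries. Tests were two-sided, with Benjamini-Hochberg adjustment per comparison and 6 comparisons. The scripts were tested on simulated data. Exon lengths and positions came from the GENCODE annotation of the same build. The labels do not say whether the 3 libraries of a condition came from separate preparations, so p-values measure only the spread between these libraries. The labels give 25 ng/mL, while the study's methods give another dose.

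The members, the gene lists and the comparisons were chosen with earlier results of these data known. Besides the 9 genes, the text names, per list, up to 3 genes in each direction with the smallest adjusted p with hlOSM, among those past the threshold with either OSM and with a mean of at least 50, and the 5 genes most correlated with Asb15. The FOXO genes were added outside this rule. Asb15 was tested in no comparison, although the planned design had tested it in mLIF against PBS and in hlOSM against mOSM, since these share libraries with the fall that selected it. Alternatives changed the pseudocount, filter, scaling, fit, block, minimum fold or the libraries included.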

Additional observations from a re-analysis of the deposited data

How the results depend on the processing

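Of 1128 refits of a member's fold change, 1093 were unchanged, 16 lost and 16 gained a call, and 3 turned direction. Unchanged meant the same direction and side of the threshold. For Asb15, untested, it meant the same direction and a shift below the larger SD of the log2 values in the conditions compared. The reversals were Asb18 between hlOSM and mOSM, at -0.01 without mOSM replicate 2 and -0.12 without hlOSM replicate 2, and Trim55 between mOSM and mLIF, at 0.02 without mOSM replicate 2. With each of the 12 libraries left out in turn, they ranged from -0.12 to 0.53 and from -0.15 to 0.02. None of these 3 comparisons had passed the threshold. Against PBS, the number of members past the threshold with mLIF was 2. It was 1 without a filter, with quantile normalization or with a minimum of 1.5-fold, 5 in a fit restricted to the 6 libraries compared, and 1 to 5 with 1 library left out, 5 without mOSM replicate 3. The number was 5 to 7 with mOSM and 6 to 7 with hlOSM with 1 library left out. A minimum of 1.5-fold left 2 with mOSM, 1 with hlOSM, 1 between mOSM and mLIF and 1 between hlOSM and mLIF. The cause was not tested. Between hlOSM and mOSM the number was 0 under each alternative. With 1 library left out, the other numbers were 3 to 4 between mOSM and mLIF and 3 to 4 between hlOSM and mLIF. Asb18 did not pass the filter at 50. Low values limit Asb18, whose SD in PBS was 12.1 on a mean of 30.3.

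The labels do not say what a replicate number stands for. Over 6626 genes with a mean of at least 100, deviations from the condition means were correlated between libraries. The correlation ran from -0.52 to 0.02 in 18 pairs of the same number, against -0.12 to 0.48 in 36 pairs of different number. The replicate numbers held 5.86% of the within-condition variance, where 25% is expected without an effect. The numbers were therefore not taken as pairs. Whether libraries of different number share a preparation was not tested. Replicate 3 nevertheless had the highest total in each of the 4 conditions, with trimmed mean of M-values scaling of 1.0176 to 1.0315 against 0.985 to 0.9953 for the other libraries. With the replicate block, 1 member passed with mLIF, with Trim55 lost at an adjusted p of 0.0693 by limma, and the other 5 numbers were 6 with mOSM, 6 with hlOSM, 0 between hlOSM and mOSM, 4 between mOSM and mLIF and 4 between hlOSM and mLIF. Of the ASB genes outside the members, the number higher with mOSM was 2 with the block instead of 5 (Asb1, Asb5 and Asb7 lost at 0.0999, 0.0571 and 0.0508), and 0 instead of 2 with mLIF. Of the elongin and cullin 5 partners it was 1 instead of 3 with hlOSM (Ube2f and Uba3 lost at 0.0634 and 0.0562) and 0 instead of 1 with mOSM. Flnc was lost with hlOSM at 0.0541, leaving 3 substrates higher instead of 4. Of the other muscle ligases with mLIF, 4 passed instead of 7.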
